A study of Mus musculus with 3 samples.

Results

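The genes described here form the core machinery that gives an epithelial cell an apical and a basal side: Pard3, Pard6a, Pard6b, Pard6g, Prkci, Prkcz, Crb3, Mpp5, Llgl2 and Scrib. They were taken as every non-control probe whose gene name, or whose current symbol found through its RefSeq accession, was 1 of these 10. All 10 genes were on the arrays, with 18 probes, among the 30338 genes named there. Llgl2 was listed under its older name Llglh2. The rule used names only and no measured value.

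Epithelial cells sort their surface into an apical and a basolateral domain through groups of proteins that exclude each other. At the apical side and the tight junction, Crb3 is a short transmembrane protein that recruits the scaffold Mpp5 (also called Pals1), while Pard3 is a scaffold that gathers a Pard6 adaptor and an atypical protein kinase C (aPKC, encoded by Prkci and Prkcz). At the basolateral side Llgl2 and Scrib act against the apical proteins, and aPKC releases Llgl2 from the apical membrane by phosphorylating it. In the mammary gland this system orients ductal and alveolar cells around a lumen.

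RNA came from EpH4-PR cells, a line of mouse mammary epithelial EpH4 cells stably transfected with the A form of the progesterone receptor. The cells were kept under neomycin (G418) selection in medium with 10% serum and harvested near 75% confluence, and the array labels name no hormone treatment. Transfected clones had been selected, and the sources used here do not say whether the RNA came from 1 clone. On each of 3 whole-genome arrays EpH4-PR RNA was labelled with Cy5 and a commercial Stratagene mouse standard RNA with Cy3. Cells of the empty vector line (EpH4-EV) were not analysed here. Each log2 ratio below therefore gives the transcript level in EpH4-PR cells relative to the standard RNA and measures no effect of the receptor. The dyes were never exchanged, so a dye effect and a difference from the standard cannot be told apart. Whether the arrays hold separate cultures is not given, and p-values measure only the spread between these arrays, which may be technical.

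The promoters of 4 genes are shown because these genes span the ratios of the 6 genes with a listed promoter. No promoter was listed for Pard6g, which had the lowest probe, nor for Mpp5, Llgl2 and Scrib. Crb3 and Pard6b had the highest ratios of the 10 genes, the Prkci ratio was nearest to 0, and Prkcz had a probe below 0. Each is the RefSeq sequence of 300 bases in build GRCm38.p6, from 250 bases before to 50 bases after an annotated start, written 5′ to 3′ on the strand of the gene. Capitals mark the E-box CACCTG or its reverse complement CAGGTG, the letters that the Snail and Zeb repressors of epithelial genes bind. The windows are chr17:57061951-57062250 on the plus strand for Crb3, chr2:168080754-168081053 on the plus strand for Pard6b, chr4:155361379-155361678 on the minus strand for Prkcz and chr3:30995521-30995820 on the plus strand for Prkci.
Crb3: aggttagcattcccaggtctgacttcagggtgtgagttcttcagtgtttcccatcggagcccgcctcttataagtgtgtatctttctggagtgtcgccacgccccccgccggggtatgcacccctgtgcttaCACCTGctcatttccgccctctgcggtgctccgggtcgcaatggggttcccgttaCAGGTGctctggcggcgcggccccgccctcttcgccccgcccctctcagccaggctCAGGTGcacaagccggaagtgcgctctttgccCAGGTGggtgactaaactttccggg
Pard6b: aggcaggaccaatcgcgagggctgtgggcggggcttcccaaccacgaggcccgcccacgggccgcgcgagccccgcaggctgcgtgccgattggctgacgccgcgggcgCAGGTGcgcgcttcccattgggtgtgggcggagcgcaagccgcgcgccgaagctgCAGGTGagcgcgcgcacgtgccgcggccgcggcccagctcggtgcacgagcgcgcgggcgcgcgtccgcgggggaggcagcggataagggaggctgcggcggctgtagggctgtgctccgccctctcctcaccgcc
Prkcz: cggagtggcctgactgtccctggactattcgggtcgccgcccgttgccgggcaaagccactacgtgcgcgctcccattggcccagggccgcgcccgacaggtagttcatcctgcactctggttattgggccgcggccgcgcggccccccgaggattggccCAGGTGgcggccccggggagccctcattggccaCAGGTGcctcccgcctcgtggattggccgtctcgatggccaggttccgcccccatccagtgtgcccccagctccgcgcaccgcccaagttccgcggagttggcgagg
Prkci: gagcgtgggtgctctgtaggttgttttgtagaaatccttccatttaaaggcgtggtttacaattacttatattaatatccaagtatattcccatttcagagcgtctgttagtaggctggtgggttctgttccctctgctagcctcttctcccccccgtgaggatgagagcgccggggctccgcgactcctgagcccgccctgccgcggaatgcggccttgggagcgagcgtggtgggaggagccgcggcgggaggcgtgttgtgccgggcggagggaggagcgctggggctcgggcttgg

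The Crb3 window held 4 E-boxes, 3 of them before the start and 1 after it. Of all 32851 mouse promoters of this length in the table, 18 (0.0548%) held at least 4, both Crb3 starts included. The Pard6b window held 2, both before the start, and 2.88% of all promoters held at least 2. The Prkcz window shown also held 2, the most of its listed starts, and the windows of the other starts held 0 and 1. The Prkci window held 0. Of the genes not shown, the Pard3 windows held 0 and 3 and the Pard6a windows 0 and 1, and 0.365% of all promoters held at least 3. Whether these counts go with the ratios was not tested. In all, 7 of 11 promoters listed for 6 of the genes (Pard3, Pard6a, Pard6b, Prkci, Prkcz and Crb3) held an E-box, against 20.2% of all promoters. Several of these are alternative starts of the same gene, and the windows of both Crb3 starts overlap. The same windows were also scanned for a partial progesterone response element, TGTTCT or its reverse complement AGAACA. It was found in 1 of the 11 promoters, a Pard6a window, against 19.0% of all promoters. These E-boxes and elements are matches of letters, and binding was not measured.

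Most polarity probes read higher in EpH4-PR cells than in the standard RNA. Of the 18 probes, 12 were higher at an adjusted p under 0.05 (limma, Benjamini-Hochberg over 41171 probes), 2 were lower and 4 were not called. The same call was made for 25.7% of all probes on the higher side and 24.6% on the lower side, and for 34.1% and 28.8% of the 25728 probes whose spots in both channels cleared the local background. The median log2 ratio of the 18 probes was 0.35, beside -0.01 over all probes. By at least 1 log2 unit, 3 of the probes were higher, against 2.25% of all probes, and 0 were lower, against 3.85%. That 0 from limma was also 0 at an unadjusted p under 0.05, and it was 1 (Pard6g) without replicate 3, with a normexp offset of 0 and with the log ratio of the scanner software. The count of 3 was 5 with offset 0, 7 with the scanner log ratio and 9 with median centring. The 6 genes with a higher probe were Pard3, Pard6b, Crb3, Mpp5, Llgl2 and Scrib, and every probe of these 6 genes was higher. In bulk RNA, fewer cells of a type and less RNA per cell cannot be told apart. Pard6a, Pard6g, Prkci and Prkcz had no higher probe.

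All 18 probes were detected in EpH4-PR cells, since the scanner software marked their spots as well above background in either channel on each of the 3 arrays. Of all probes, 68.9% reached this in the Cy5 channel. A stricter comparison was with the 314 negative control spots of each array. All 18 EpH4-PR spots lay above the 95th percentile of those controls on every array, against 66.8% of all probes. In the Cy3 channel only 8 of the 18 did so, against 33.2% of all probes. The Cy3 negative controls had medians of 119, 121 and 91.8 over local backgrounds of 40, 43 and 39, and their 95th percentiles were 162, 168 and 107. Of the 12 higher probes, 4 had a standard RNA spot above that limit on all arrays. For the other higher probes the fold therefore rests on a denominator within the range of the negative control spots on at least 1 array, and its part in the size of the ratio was not tested.

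**Figure D1:**
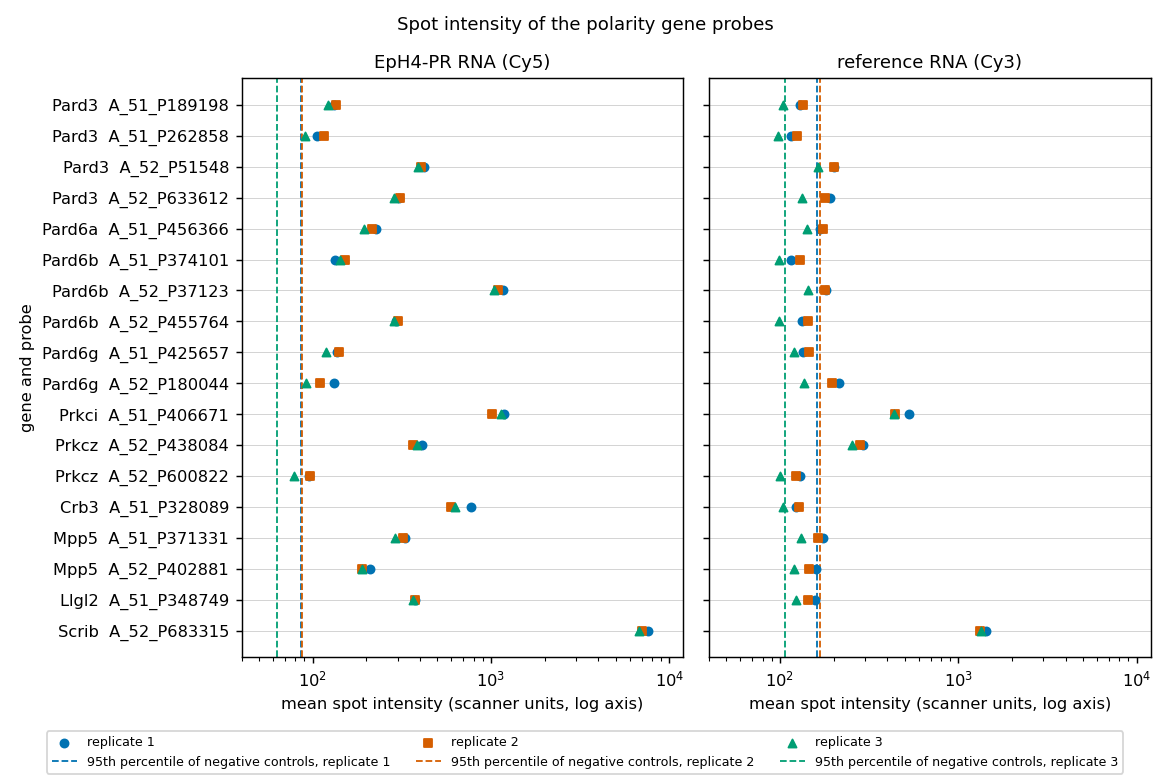
Mean spot intensity (scanner units, log axis) of the 18 polarity probes on each of 3 arrays, with EpH4-PR RNA in the left panel and the standard RNA in the right. Dashed lines mark the 95th percentile of 314 negative control spots per array. All 18 probes lie to the right of these lines for EpH4-PR RNA on every array and 8 do for the standard RNA; intensities of different probes are not comparable as levels.

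The Crumbs complex held the highest ratio of the 18 probes. Crb3 (probe A_51_P328089), the transmembrane anchor of the apical domain, had log2 ratios of 2.41, 1.97 and 1.93 on replicates 1, 2 and 3. Its mean was 2.10 ± 0.27 (SD, n = 3), a ratio of 4.30-fold (SE 0.11 on the log2 scale, limma adjusted p = 0.000100). The 3 arrays all lay above 0, with replicate 1 the highest. The EpH4-PR spots read 778, 599 and 625 scanner units. The standard RNA spots read 122, 127 and 105, below the 95th percentile of the negative controls on all 3 arrays. The direction was the same under every processing setting tried, with means from 1.95 to 4.01, but the size of the fold is not settled by such a dim denominator.

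Mpp5, the scaffold that ties Crb3 to its partners, was measured by a pair of probes that were both higher. Probe A_51_P371331 had log2 ratios of 0.53, 0.64 and 0.57, with a mean of 0.58 ± 0.06 (SD, n = 3; limma adjusted p = 0.000412). Probe A_52_P402881 had log2 ratios of 0.26, 0.36 and 0.30, with a mean of 0.30 ± 0.05 (limma adjusted p = 0.00394). The difference between both probes was nearly the same on every array, at 0.28 ± 0.01 log2 units (SD, n = 3). Mpp5 was thus higher on every array, with a smaller ratio than Crb3 on each of them.

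In the Par complex, Pard3, the scaffold at the tight junction, was measured by 4 probes, all higher in the limma fit, with means of 0.32 to 0.43. Probe A_52_P51548, with the brightest EpH4-PR spots of the 4, had log2 ratios of 0.45, 0.40 and 0.44 and a mean of 0.43 ± 0.03 (SD, n = 3; limma adjusted p = 0.000932). Probe A_52_P633612 had 0.22, 0.39 and 0.52, with a mean of 0.38 ± 0.15 (adjusted p = 0.00821 in the same limma fit). The means of probes A_51_P189198 and A_51_P262858 were 0.33 ± 0.10 and 0.32 ± 0.13, with limma adjusted p of 0.00612 and 0.0115. The call of A_51_P262858 was lost without replicate 1 (adjusted p = 0.0518, limma) and without replicate 2 (adjusted p = 0.0591, limma). After adjustment the methods' t-test called only A_52_P51548 of the 4. Median centring put A_52_P51548 at 1.26 and A_52_P633612 at 1.07. All 12 single values lay above 0, and the 4 probes differed from each other by at most 0.11 log2 units in the mean, within the spread between arrays for most pairs.

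The Pard6 adaptors, which bind aPKC and the small GTPase Cdc42, did not share a direction. Pard6b had 3 probes, all of them higher. Probe A_52_P37123 had log2 ratios of 1.93, 1.90 and 1.94, with a mean of 1.92 ± 0.02 (SD, n = 3; SE 0.04), 3.79-fold above the standard RNA (limma adjusted p = 1.66e-05). The arrays lay close together for this probe, its spots read 1162, 1097 and 1040 in EpH4-PR RNA and 181, 178.5 and 144 in the standard RNA, and 0.257% of all probes had a higher mean. Probe A_52_P455764 had log2 ratios of 1.15, 0.90 and 1.21, with a mean of 1.09 ± 0.16 (2.13-fold, limma adjusted p = 0.000234). Probe A_51_P374101 had 0.82, 0.48 and 0.51, with a mean of 0.60 ± 0.19 (limma adjusted p = 0.00265). The 3 Pard6b probes had one direction but not one size, with A_52_P37123 higher than A_52_P455764 by 0.83 ± 0.15 and A_51_P374101 lower than A_52_P37123 by 1.32 ± 0.18 log2 units. For the weaker 2 probes the standard RNA spots were below the 95th percentile of the negative controls on every array.

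Pard6a had log2 ratios of 0.24, -0.01 and -0.06, with a mean of 0.06 ± 0.16 (SD, n = 3; limma adjusted p = 0.538). The arrays fell on both sides of 0. The Pard6g probes disagreed. Probe A_52_P180044 had log2 ratios of -1.02, -1.03 and -0.69, with a mean of -0.91 ± 0.19, a 1.88-fold lower level than in the standard RNA (limma adjusted p = 0.000644), and 4.55% of all probes were lower still. Its mean was -1.55 with a normexp offset of 0 and -1.63 with the log ratio of the scanner software, and it was not called by the methods' t-test after adjustment. Probe A_51_P425657 had 0.34, 0.05 and -0.15, with a mean of 0.08 ± 0.25 (limma adjusted p = 0.518). Both probes were dim, and A_51_P425657 lay above A_52_P180044 by 1.00 ± 0.42 log2 units, on every array. No single direction for Pard6g can be given from them.

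With the probes of a gene averaged on each array, Pard6b stood 1.15 ± 0.11 log2 units above Pard6a and 1.62 ± 0.03 above Pard6g, and Pard6a stood 0.47 ± 0.11 above Pard6g (SD, n = 3). These compare ratios to the standard RNA and not transcript levels between genes. With the probes averaged, the order was the same on each of the 3 arrays. The Pard6g average joins probes with means of 0.08 and -0.91. Against probe A_51_P425657 alone, Pard6a was lower on replicates 1 and 2. Every Pard6b probe was above Pard6a and both Pard6g probes on each array. An exact two-sided sign-flip permutation test over 3 arrays cannot give a p below 0.25, which each of these differences reached.

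Neither atypical protein kinase C gene was higher than in the standard RNA. Prkci, which encodes aPKC iota, had log2 ratios of -0.11, 0.04 and 0.10, with a mean of 0.01 ± 0.11 (SD, n = 3; limma adjusted p = 0.880). Its spots were well measured, at 1177, 1017 and 1145 in EpH4-PR RNA and 528, 442 and 438 in the standard RNA. The arrays fell on both sides of 0. With median centring in place of the loess curve, the Prkci mean became 1.21 (limma adjusted p = 2.44e-07), so its place beside the standard RNA depends on the intensity-dependent dye correction. By median centring 42.5% of all probes were called higher and 40.9% lower.

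Prkcz, which encodes aPKC zeta, had a pair of probes. Probe A_52_P438084 had log2 ratios of -0.38, -0.44 and -0.36, with a mean of -0.39 ± 0.04 (SD, n = 3; 1.31-fold lower, limma adjusted p = 0.00139), but its mean was 0.53 with median centring. Probe A_52_P600822 had a mean of 0.05 ± 0.10 (limma adjusted p = 0.479), and its standard RNA spot was not above the 95th percentile of the negative controls on any array. The brighter probe was below 0 on all arrays and the dim one scattered around 0. The Prkci ratio exceeded the Prkcz ratio, averaged over its probes, by 0.08, 0.17 and 0.29 on the arrays, a mean of 0.18 ± 0.11 (exact sign-flip permutation p = 0.25, the smallest that 3 arrays allow). This difference was 1.01 with median centring. Against the dim Prkcz probe A_52_P600822 alone, Prkci was lower on replicates 1 and 2.

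**Figure D2:**
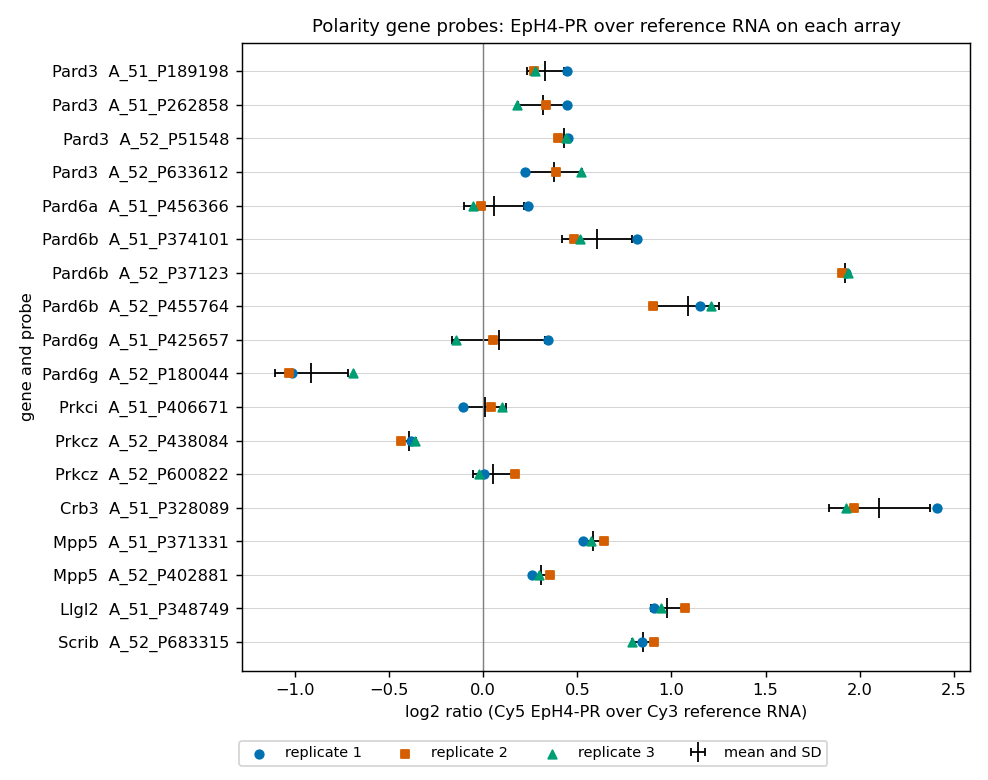
Log2 ratio of EpH4-PR (Cy5) over standard RNA (Cy3) for the 18 polarity probes; symbols are the 3 arrays, and the bar marks the mean with its SD. Crb3 at 2.10 and Pard6b probe A_52_P37123 at 1.92 lie farthest above 0, Pard6g probe A_52_P180044 at -0.91 lies farthest below, and Prkci sits at 0.01.

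Both basolateral genes were higher. Llgl2, the substrate of aPKC that holds the basolateral domain, had log2 ratios of 0.91, 1.07 and 0.94, with a mean of 0.98 ± 0.09 (SD, n = 3), 1.97-fold above the standard RNA (limma adjusted p = 0.000116). All 3 arrays lay close together, and 2.39% of all probes had a higher mean. Its spots read 375, 374 and 364 in EpH4-PR RNA and 157, 144 and 123 in the standard RNA, of which 1 array exceeded the negative control limit. Scrib, a scaffold of the lateral membrane, had log2 ratios of 0.85, 0.91 and 0.79, with a mean of 0.85 ± 0.06 (1.80-fold, limma adjusted p = 0.000125). The Scrib spots were bright in both channels, at 7638, 7025 and 6795 in EpH4-PR RNA and 1425, 1317 and 1346 in the standard RNA, far above the negative controls on every array.

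The background correction moved the size of many ratios. With a normexp offset of 0 in place of 50, Crb3 went from 2.10 to 3.25, Pard6b probe A_51_P374101 from 0.60 to 1.42 and Llgl2 from 0.98 to 1.46. Pard6g probe A_52_P180044 went from -0.91 to -1.55 and Prkcz probe A_52_P600822 from 0.05 to 0.13. Scrib, bright in both channels, went from 0.85 to 0.88. With the log ratio of the scanner software Crb3 had a mean of 4.01, Pard6b probe A_51_P374101 of 1.78, Llgl2 of 1.71 and Scrib of 0.88. All 12 higher probes stayed above 0 under these settings and under median centring, where Scrib reached 2.28.

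**Figure D3:**
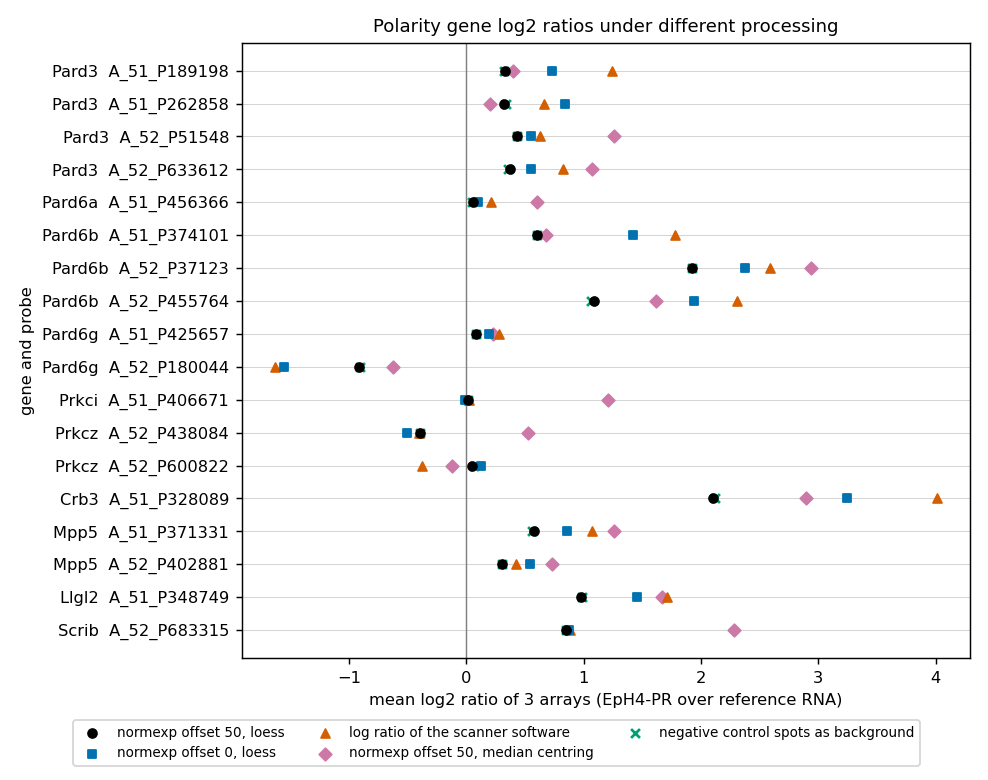
Mean log2 ratio of the 18 polarity probes over 3 arrays under 5 ways of processing; each symbol is a setting. The symbols of Scrib lie together at 0.85 to 0.88 except for median centring at 2.28, those of Crb3 spread from 2.10 to 4.01, and Prkcz probe A_52_P438084 lies on both sides of 0.

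Other genes of the polarity network were read in the same fit. Of 40 further genes, 38 had a probe on the array (Pard3b and Wwc1 had none), with 71 probes in all. Of these probes 31 were higher, 10 lower and 30 not called, with a median log2 ratio of 0.11, beside 25.7% higher, 24.6% lower and a median of -0.01 over all probes. Of the 71, 54 were well above background in EpH4-PR RNA on all arrays, against 68.9% of all probes. By at least 1 log2 unit 4 were higher and 1 lower, against 2.25% and 3.85%. Without replicate 2 the higher probes numbered 20. Among the members themselves the median was 0.35, and no test of the difference between both lists was made.

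Partners of the Par complex (Cdc42, Rac1 and Tiam1) had 2 of 6 probes higher, 1 lower and 3 not called. The Cdc42 probes disagreed, at -0.78, 0.02 and 0.20. Partners of the Crumbs complex (Crb1, Crb2, Patj, Lin7a, Lin7b and Lin7c) had 4 of 16 probes higher, 3 lower and 9 not called, and 8 of the 16 were well above background in EpH4-PR RNA on all arrays. The higher share of these 16 was near the 25.7% of all probes, and the detected share was below the 68.9% of all probes. Patj, the scaffold that binds Mpp5, had all 3 probes higher, at 0.83 ± 0.02, 0.44 ± 0.04 and 0.34 ± 0.19 (SD, n = 3). The standard RNA spots of these Patj probes were not above the 95th percentile of the negative controls on any array, so the sizes are uncertain. The lowest of the 16 was Lin7c probe A_51_P334118 at -0.92 ± 0.03 (limma adjusted p = 7.72e-05), above those controls in both channels on all arrays. The other Lin7c probes were not called, at -0.005 and 0.14. The Crb3 relatives Crb1 and Crb2 had 5 probes, none of them higher and none well above background in EpH4-PR RNA on all arrays. Of the 3 Crumbs genes, Crb3 alone had a probe that reached this.

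The shares of all probes, 25.7% higher and 24.6% lower, stand beside each of the following counts, which were not tested as lists. Partners of Scrib and Llgl2 (Llgl1 and Dlg1 to Dlg5) had 5 of 8 probes higher, 1 lower and 2 not called. Llgl1, the relative of Llgl2, stood at 0.82 ± 0.03, and Dlg1, a scaffold beside Scrib, at 0.69 ± 0.08 and 0.22 ± 0.04 on its probes (SD, n = 3). The standard RNA spot of the Dlg1 probe at 0.69 was above the negative control limit on 1 of 3 arrays. The Dlg5 probes were higher at 0.54 and 0.26. Dlg2 was lower at -0.26 ± 0.08, and its EpH4-PR spot was not well above background on any array. Dlg3 and Dlg4 were not called, at 0.11 and -0.08. The Par1 and Par4 kinases and their partners had 7 of 14 probes higher, 2 lower and 5 not called. The aPKC partners Sqstm1, Numb and Numbl had 2 of 5 higher and 3 not called, with a median of 0.12. Junctional adhesion molecules, which anchor Pard3 at the tight junction, had 1 of 5 probes higher, 2 lower and 2 not called.

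The highest ratios among the further polarity genes were in the list of band 4.1 (FERM) proteins and in ezrin, which was placed with the apical membrane proteins. The FERM list had 3 of 4 probes higher, each of these by at least 1 log2 unit, and the Epb41l5 probe was not called at -0.27. Epb41l4b had log2 ratios of 2.17, 2.14 and 2.41, with a mean of 2.24 ± 0.15 (SD, n = 3; limma adjusted p = 2.80e-05). Nf2, the cortical tumour suppressor merlin, stood at 1.78 ± 0.02 and 1.12 ± 0.07 on its probes. Both genes were above 0 on every array. The standard RNA spot of the higher Nf2 probe was above the negative control limit on 0 of 3 arrays and that of Epb41l4b on 1 of 3, so the sizes of these ratios are uncertain too. Ezr, which links apical membrane proteins to actin and was listed as Vil2, had log2 ratios of 1.38, 1.43 and 1.29, with a mean of 1.37 ± 0.07 (limma adjusted p = 4.02e-05). It was the single one of 13 apical membrane probes higher by at least 1 log2 unit, of which 7 were higher, 1 lower and 5 not called. On the lower side, Jam3 had log2 ratios of -1.47, -1.39 and -1.81 on probe A_51_P358354, with a mean of -1.56 ± 0.23 (limma adjusted p = 0.000164), where the EpH4-PR spot was well above background on 2 of 3 arrays. Its other probe read -0.05 ± 0.03.

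**Figure D4:**
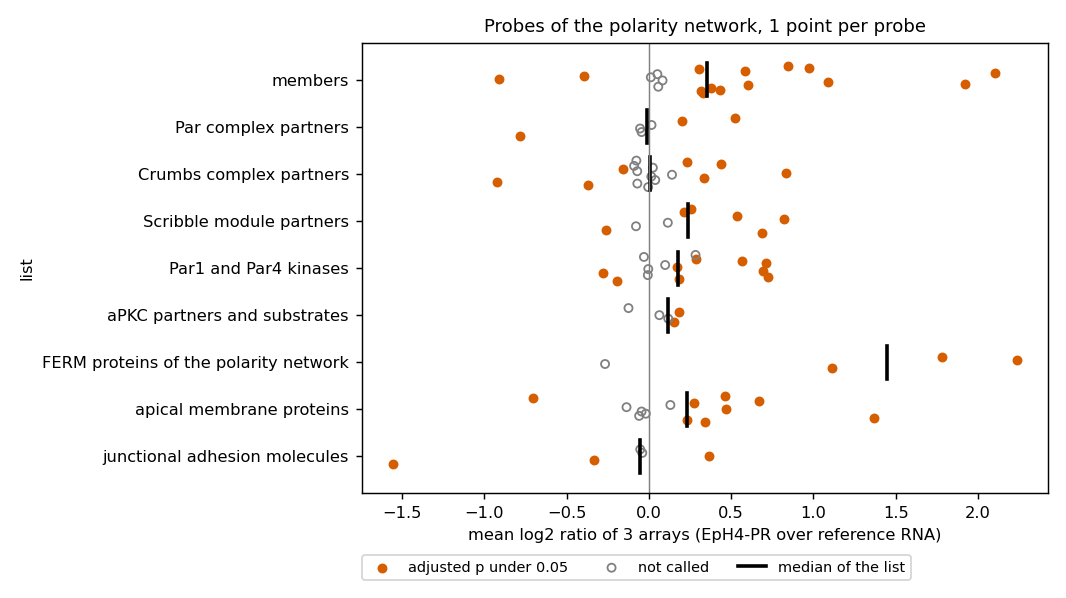
Mean log2 ratio over 3 arrays of every probe of the 10 core polarity genes (top row, "members") and of 8 lists of further polarity genes; filled points passed an adjusted p under 0.05, open points did not, and a bar marks the median of each list. The core median of 0.35 lies above those of the other lists except the FERM proteins at 1.45.

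The labelled cell type was checked with marker genes. Of 13 probes for 10 epithelial genes, 10 were higher, 1 lower and 2 not called, all 13 were well above background in EpH4-PR RNA, and their summed intensity ran from 96882 to 112807 across the arrays. E-cadherin (Cdh1) stood at 4.29 ± 0.10 and Epcam at 1.25 ± 0.03 (SD, n = 3), Krt8 at 1.40 and 1.11 and Krt18 at 1.40. Krt19 was the exception, at -2.62 ± 0.18. The standard RNA spot of Cdh1 was above the negative control limit on 1 of 3 arrays, so the size of the Cdh1 ratio is uncertain. Of 11 basal and myoepithelial probes 2 were higher, 2 lower and 7 not called, with Krt14 at 2.08 ± 0.14, while the called Acta2 probes disagreed at 0.60 and -2.01. Of 16 mesenchymal probes 0 were higher and 13 lower, with summed EpH4-PR intensities of 5447 to 5945, and vimentin stood at -6.51 on its brighter probe and collagen Col1a1 at -5.04, -2.16 and -0.26 on its 3 probes. Blood cell markers had 0 of 12 probes higher and 7 lower, and the most strongly lower Ptprc probe was not well above background in EpH4-PR RNA on any array. Endothelial markers had 0 of 5 higher, 1 of 5 well above background on all arrays, and Pecam1 was well above background on 1 of 3. The standard RNA thus carried mesenchymal and blood cell transcripts that EpH4-PR RNA had less of, and the part of its cell mixture in the polarity ratios was not tested.

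The arrays were not fully alike in quality. Outlier spots numbered 150, 18 and 3 on replicates 1, 2 and 3, and replicate 3 correlated least with the others. Across probes the log2 ratios of array pairs had Pearson correlations of 0.923 to 0.952, which are across probes and not across independent samples. Median spot intensities were 93.8 to 113 in Cy5 and 108 to 142 in Cy3, lowest on replicate 3 in both channels. No polarity spot was saturated or marked as an outlier.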

How the data were processed

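RNA of EpH4-PR cells (Cy5) and a mouse standard RNA (Cy3) was hybridized together on 3 Agilent arrays of 43790 spots. The authors deposited Feature Extraction 8.1.1.1 output, per the file headers, with spot and local background intensities and a log10 ratio for each spot. An authors' table of log10 ratios, fold changes, p-values and mean intensities between 2 unnamed sides was not used. The deposited mean spot and median local background intensities were corrected with normexp (offset 50) and normalized within arrays by loess with control spots at weight 0, in limma 3.58.1 (R 4.3.3); tables were made in Python 3.11.15 with pandas 2.3.3. Control spots and outlier spots (150, 18 and 3 per array) were left out, and spots of a probe were averaged. The log2 ratio of the deposited intensities was tested against 0 with lmFit and eBayes, with Benjamini-Hochberg adjustment over 41171 of 41174 probes, and called at an adjusted p under 0.05. The array was the replicate, as numbered in the labels, and the number of arrays limits the precision.

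RefSeq accessions matched 21445 of 23705 probes to a GRCm38.p6 gene table, which named 11 of the polarity probes, and the other 7 kept the name in the file. No genome build is stated in the arrays' text, so probe coordinates were not used here. The genes and lists were chosen with earlier results of these data known. Named genes were every probe of the 10 genes, further polarity genes called at 1 log2 unit with the same sign on all arrays (at most 8 each way), and defining cell type markers; other list genes named were chosen after their values were seen. The fit was tested on simulated data. Alternatives covered the background correction, the scanner log ratio, median centring, median spot intensities, outlier spots, a filter on dim probes, the methods' t-test, an intensity trend in eBayes and each array left out; the use of negative control spots was added after seeing the data.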

Additional observations from a re-analysis of the deposited data

How the results depend on the processing

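Of 18 probe ratios, 18 had the same direction and call with median spot intensities, outlier spots kept, a filter on dim probes, an intensity trend or negative control spots as background (chosen after seeing the data). With a normexp offset of 0, 5 polarity probes were higher by at least 1 log2 unit and 1 lower, against 3 and 0. With the scanner log ratio these were 7 and 1, and with median centring 9 were higher by that size, 16 were higher at all and 1 was lower at all. Leaving out 1 array gave 11 to 12 higher probes and 0 to 1 lower by at least 1 log2 unit, with the 1 found without replicate 3. The plain t-test against 0 gave 11 higher probes unadjusted, and 8 higher and 1 lower after Benjamini-Hochberg adjustment. Above the negative control spots, 8 and not 18 probes were detected in the standard RNA. The cause was not tested for these shifts, beyond a smaller offset being built to widen ratios of dim spots.

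Reversed values were small or came from a change of normalization. Prkci was -0.013 with offset 0 and ran from -0.034 (without replicate 3) to 0.072 with single arrays left out, at -0.0034 without replicate 2. Over the same fits Pard6a ran from -0.034 (without replicate 1) to 0.11 and Pard6g probe A_51_P425657 from -0.048 (without replicate 1) to 0.20. Prkcz probe A_52_P438084 was 0.53 with median centring, and A_52_P600822 was -0.38 with the scanner log ratio, -0.12 with median centring and from -0.0084 (without replicate 2) to 0.087 with single arrays left out. With median centring Pard6a (0.60), Pard6g probe A_51_P425657 (0.23) and Prkci (1.21) passed the threshold.

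The Prkci minus Prkcz difference was 0.41 with the scanner log ratio and 1.01 with median centring. Pard6b minus Pard6a was 1.81 with offset 0 and 2.02 with the scanner log ratio. Pard6b minus Pard6g was 2.59, 2.90 and, with median centring, 1.94, and Pard6a minus Pard6g was 0.78, 0.88 and 0.80 under the same settings.

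For the 71 further probes (31 higher, 10 lower, and 4 and 1 by at least 1 log2 unit), offset 0 gave 8 and 5 by at least 1 log2 unit, the scanner log ratio 12 and 5, and median centring 27 higher by that size and 19 lower at all. The plain t-test against 0 gave 17 higher and 6 lower after adjustment. Without single arrays the higher count ran from 20 to 31, with 22 without replicate 1 and 20 without replicate 2.

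No paired analysis was possible because the arrays form 1 group, so replicate numbers pair nothing. A slide block was not run because each slide held 1 array. With 3 arrays, no dye swap and standard RNA spots near the negative controls for 10 of 18 probes, small ratios and the exact size of large ones are the least certain.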
